A study of Mus musculus with 6 samples.

Results

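The Mu-class glutathione S-transferases of the mouse were followed in liver RNA. Their genes were taken by symbol, Gstm1 to Gstm7, and all 7 were found among the 24411 gene symbols of the count table. The class was chosen with earlier results of these data known. No other symbol of the table begins with Gstm. Liver transcripts were counted by RNA-seq in 3 p62+/+ (wild-type) and 3 p62S351E/+ mice at postnatal day 19. In p62S351E/+ mice, 1 allele of Sqstm1, the gene encoding p62, carries Glu in place of Ser351, so that p62 mimics its phosphorylated form, while the other allele is intact. The comparison asked which liver transcripts differ when this form of p62 is present. The allele was made by prime editing in embryonic stem cells and passed on by a single chimeric male through in vitro fertilization, so all p62S351E/+ mice share that founder. The study describes these mice as severely growth-retarded, and the effects of the allele in the liver and of the state of the animal cannot be told apart here. The labels give no sex, litter or sequencing batch.

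Glutathione S-transferases of the Mu class are cytosolic enzymes, active as dimers, that join reduced glutathione to electrophilic compounds. The products are pumped out of the cell by conjugate exporters and are processed further to mercapturates. Many genes of this pathway are known targets of NRF2, a transcription factor that binds antioxidant response elements and is held down by KEAP1. Phosphorylated p62 binds KEAP1 tightly, which releases NRF2. Gstm1 is known as a major Mu-class gene of mouse liver, and Gstm5 is best known from brain and testis.

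All 7 genes lie in a single cluster on chromosome 3 of GRCm38 (mm10), from 107895854 to 108045179, a stretch of 149326 bases. By the RefSeq coordinates of that build the order is Gstm5 (107895854 to 107898685), Gstm7 (107926334 to 107931877), Gstm6 (107938847 to 107953641), Gstm3 (107963696 to 107969174), Gstm2 (107981702 to 107986420), Gstm1 (108012250 to 108017973) and Gstm4 (108030571 to 108045179). Gstm5 is on the plus strand and the other 6 are on the minus strand. In GENCODE each principal transcript has 8 exons. The coding sequence is 672 bases long in Gstm5 and 654 bases long in the other 6 genes.

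The members resemble each other closely, which bears on how reads can be assigned to them. Gstm1 and Gstm3 were the closest pair, with 89.4% identical bases over their aligned coding sequences, followed by Gstm1 and Gstm2 with 85.9% and Gstm2 and Gstm6 with 85.6%. Gstm5 was the most distant member and shared between 68.0% and 70.7% of its bases with the others. The plot of coding identity gives all pairs. Within the coding sequences, the longest stretch that Gstm1 and Gstm3 share without a difference is 112 bases long, longer than the 75-base reads. It spans the junction of exons 6 and 7 and covers coding bases 389 to 500 of both genes. It is printed here 5′ to 3′ on the coding strand with the same stretch of the other members, from GRCm38, because reads that fall within it cannot be told apart between Gstm1 and Gstm3. Capitals mark bases that differ from Gstm1.
Gstm1: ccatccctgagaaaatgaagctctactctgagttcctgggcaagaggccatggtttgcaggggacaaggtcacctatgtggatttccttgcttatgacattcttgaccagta
Gstm2: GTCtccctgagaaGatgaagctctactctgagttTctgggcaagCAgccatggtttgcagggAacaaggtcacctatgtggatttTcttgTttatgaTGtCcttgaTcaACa
Gstm3: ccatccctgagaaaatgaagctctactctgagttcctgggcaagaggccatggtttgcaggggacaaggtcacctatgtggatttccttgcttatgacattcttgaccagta
Gstm4: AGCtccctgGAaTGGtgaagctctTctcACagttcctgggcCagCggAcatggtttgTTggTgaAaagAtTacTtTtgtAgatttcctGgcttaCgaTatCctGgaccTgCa
Gstm5: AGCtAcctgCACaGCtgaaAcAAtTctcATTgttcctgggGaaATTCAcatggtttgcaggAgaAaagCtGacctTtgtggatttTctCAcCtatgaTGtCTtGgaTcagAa
Gstm6: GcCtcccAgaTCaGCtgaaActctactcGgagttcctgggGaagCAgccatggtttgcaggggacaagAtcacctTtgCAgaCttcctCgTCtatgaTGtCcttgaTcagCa
Gstm7: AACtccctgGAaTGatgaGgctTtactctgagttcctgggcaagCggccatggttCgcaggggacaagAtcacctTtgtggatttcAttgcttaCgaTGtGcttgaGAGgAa

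**Figure D1:**
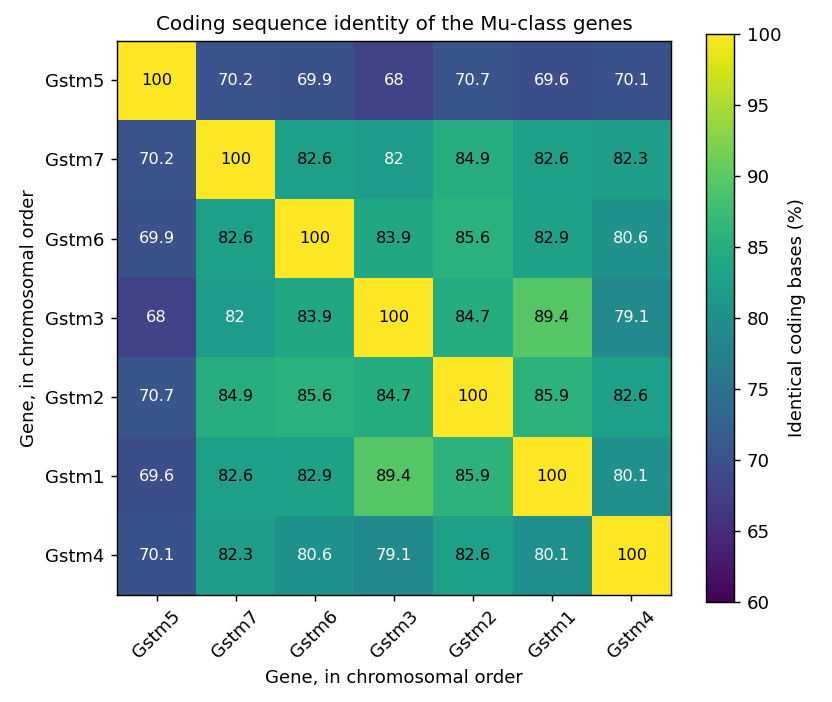
Percent of identical bases over the aligned coding sequences of each pair of Mu-class genes, as a matrix with both axes listing the 7 genes. The pair of Gstm1 and Gstm3 stands highest at 89.4%, and the row of Gstm5 lies between 68.0% and 70.7%.

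The printed stretch lies in the interval chr3:108014820-108015012 for Gstm1 and chr3:107966154-107966346 for Gstm3, each interrupted by an intron. Within it Gstm2 differs from Gstm1 at 16 bases, Gstm7 at 22, Gstm6 at 25, Gstm4 at 30 and Gstm5 at 38. A second stretch of this kind, 125 bases long, is identical in Gstm3 and Gstm6 over coding bases 169 to 293, in exons 3 to 5. It is printed from Gstm3, at chr3:107967642-107968144, and the copy in Gstm6 lies at chr3:107942200-107942710.
Gstm3 and Gstm6: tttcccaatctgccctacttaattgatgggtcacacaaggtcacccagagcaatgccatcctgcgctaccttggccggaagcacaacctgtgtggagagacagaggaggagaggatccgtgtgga

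Distinct 75-base windows were taken over all GENCODE transcripts of each gene together. Of these, 11.7% for Gstm1 (180 of 1545) and 21.6% for Gstm3 (267 of 1237) also occur in a transcript of another gene. Gstm1 and Gstm3 share 70 of these windows with each other, and Gstm3 shares 51 with Gstm6. The other partners of Gstm1 and Gstm3 are the pseudogenes Gstm2-ps1 and Gm8834, which were not analysed here. Gstm4 and Gstm7 have no such window (0 of 1703 and 0 of 1701), Gstm6 has 2.59% and Gstm2 has 1.85%, none of the latter shared with another member. For Gstm5 the share is 7.47% (104 of 1392), all with 4933431E20Rik, an antisense transcript that overlaps 360 bases of Gstm5.

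The deposited counts show where reads were divided. The values are estimated counts per gene from RSEM, which splits a read that matches several genes among them, so a value that is not whole marks a divided read. With a tolerance of 0.005, Gstm1 and Gstm3 were not whole in 6 of 6 libraries, Gstm6 in 3 of 6, all of them p62S351E/+, and the other 4 members in none. The sum of Gstm1 and Gstm3 was whole in the 3 p62+/+ libraries (155, 181 and 129 counts) and in none of the p62S351E/+ libraries (875.75, 1516.34 and 1478.8 counts). With Gstm6 added, the sums were whole in all but 1 of the 6 libraries, and the exception was 0.01 off, with 1527.01 counts in p62S351E/+ mouse 2. The fractions thus cancelled within the group of Gstm1, Gstm3 and Gstm6, and the level of each of these 3 genes is uncertain by the reads so divided. The sum over all 7 members depends less on this division and is given beside the single genes.

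The libraries held 8696712 to 10341622 counts each, of which only 134911 to 315436 fell outside Rn45s, Lars2 and Mir6236, a ribosomal RNA precursor and 2 other abundant rows. Normalized counts, which follow, are counts divided by each library's TMM-scaled size relative to the geometric mean over the 6 libraries. The libraries also stood apart in ways the genotypes do not define. The summed counts of 10 brain markers were 2265, 2435 and 2094 in wild-type mice and 3, 6 and 2280 in p62S351E/+ mice 1, 2 and 3, so brain transcripts such as Mbp were present in 4 libraries and nearly missing from 2. Whether they came from the livers themselves was not tested. For Xist, the RNA of the inactive X in female cells, the libraries held 70.8, 1505 and 1071 counts in wild-type mice and 1, 0 and 1537 counts in p62S351E/+ mice. Among 9 hepatocyte markers, none passed the test by edgeR or by DESeq2, and 2 had an unadjusted p below 0.05 in edgeR. Their summed normalized counts were 12807, 11732 and 12583 in wild-type mice and 16457, 27459 and 12112 in p62S351E/+ mice, so hepatocyte transcripts were abundant in all 6 libraries. Sqstm1 itself stood at 79.1 ± 6.78 and 97.2 ± 7.44 normalized counts (SD, n = 3 each) in wild-type and p62S351E/+ livers, and counts per gene cannot tell its alleles apart.

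Mu-class transcripts were far more abundant in the livers of p62S351E/+ mice. The summed counts of the 7 members were 184, 210 and 148 in wild-type mice and 904, 1585 and 1533 in p62S351E/+ mice. As normalized counts these sums were 146 ± 17.6 (SD, n = 3) and 1635 ± 411 (SD, n = 3). The lowest p62S351E/+ mouse, with 1188 normalized counts, lay well above the highest p62+/+ mouse, with 163. Taken as a single feature in place of the 7 rows, the sum rose by a log2 fold change of 3.48 ± 0.28 (SE, adjusted p = 0.000911, edgeR's quasi-likelihood test with Benjamini-Hochberg adjustment over all genes tested). This is an 11.2-fold difference with a 95% interval of 7.22 to 17.3. The members took 0.0545% to 0.0701% of the counts outside the 3 abundant rows in wild-type mice and 0.486% to 0.684% in p62S351E/+ mice.

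**Figure D2:**
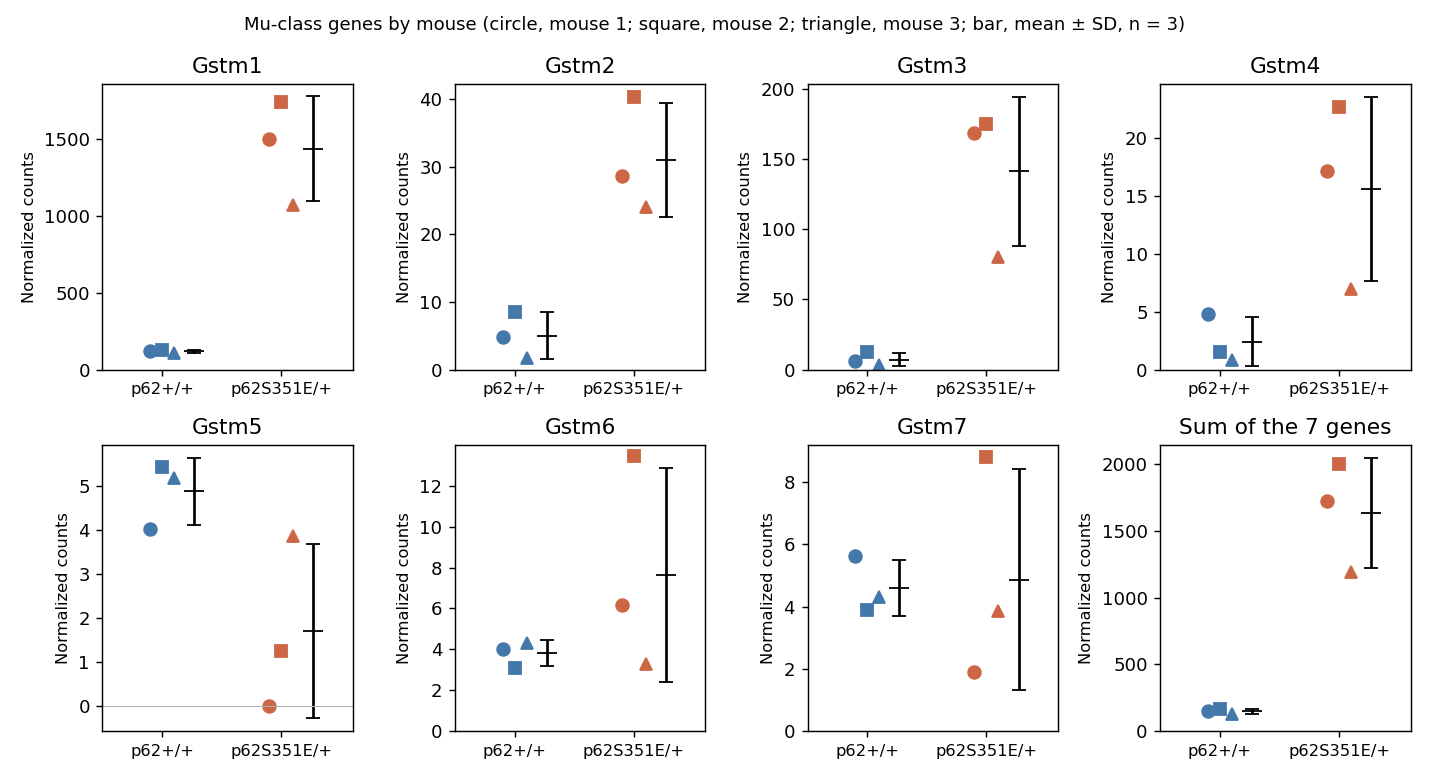
Normalized counts (linear axes) of Gstm1 to Gstm7 and of their sum, by genotype, with a circle, square and triangle for mice 1, 2 and 3 and a bar for the mean ± SD (n = 3). The 3 p62S351E/+ mice lie above the 3 p62+/+ mice for Gstm1, Gstm2, Gstm3 and Gstm4 and below them for Gstm5, while for Gstm6 and Gstm7 the ranges of the genotypes overlap.

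In p62S351E/+ mouse 3, whose brain markers and Xist resembled those of p62+/+ mice 2 and 3, the sum was still high. With this animal as the only p62S351E/+ mouse, the log2 fold change of the sum was 3.03, a value of 1 mouse and given without a test. With the brain-marker sum as a covariate it was 3.03 (adjusted p = 3.79e-05, edgeR) and with Xist as a covariate 3.14 (adjusted p = 0.000207, edgeR). The values are all below 3.48. Brain markers and Xist differ with genotype in part, and their part in the rise was not tested.

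The members had 11.5, 13.9 and 10.2 counts for every 1000 counts of hepatocyte markers in wild-type mice and 105, 72.7 and 98.0 in p62S351E/+ mice. The group means of 11.9 ± 1.89 and 91.8 ± 16.8 (SD, n = 3 each) differ 7.74-fold, without overlap (p = 0.1, two-sided exact permutation test, the smallest p that 3 against 3 mice allow). In liver RNA, fewer cells of a type and less RNA per cell cannot be told apart, and this ratio does not separate them.

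A gene was called where its adjusted p lay below 0.05 and its log2 fold change beyond 1 in either direction. Of the 7 members, 3 passed the filter on low counts, 2 were called higher and 0 lower. The 3 tested members all had log2 fold changes above 0, and Gstm5, at -1.16 in the fit without a filter, was not tested. DESeq2 also called 2 members higher and 0 lower. Among all 5945 genes tested by edgeR, 0.841% were called higher, 0.0841% lower and 0.925% in either direction, and 14.6% had an unadjusted p below 0.05. Without p62S351E/+ mouse 3 edgeR called 329 genes higher and 976 lower of 6390 tested, against 50 and 5 of 5945. DESeq2 gave an adjusted p to 1814 genes and called 3.14% of these higher and 0.606% lower. Its own filter had set the other genes aside, so these shares have another base than those of edgeR. Gstm2 and Gstm3 passed the filter through their counts in p62S351E/+ mice, so the members that passed are not a fair sample of the family. Without overlap between the genotypes, 4 of the 7 members were higher and 1 was lower. Of the 3 tested members, 3 were higher, where 12.0% of tested genes were higher and 14.7% lower in this sense. These shares do not cover the 4 members below the filter.

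Gstm1, the most abundant Mu-class transcript, had 148, 165 and 126 counts in wild-type mice and 788, 1377 and 1376 counts in p62S351E/+ mice. Every p62S351E/+ library was above every p62+/+ library, although p62S351E/+ mouse 1 had the fewest counts in total outside the 3 abundant rows. The normalized counts were 118 ± 9.83 and 1433 ± 340 (SD, n = 3 each). The log2 fold change was 3.59 ± 0.26 (SE, adjusted p = 0.000511, edgeR's quasi-likelihood test). The fold of 12.1 had a 95% interval of 7.94 to 18.4. Gstm1 ranked 13 among the 5945 tested genes by log2 fold change.

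Gstm3, the closest relative of Gstm1, had 7.2, 15.95 and 3.4 counts in wild-type mice and 88.25, 138.88 and 103.3 counts in p62S351E/+ mice. The genotypes did not overlap, with 12.4 normalized counts in the highest p62+/+ mouse and 80.0 in the lowest p62S351E/+ mouse, number 3. The means were 7.03 ± 4.85 and 141 ± 52.9 normalized counts (SD, n = 3 each), and the log2 fold change was 4.32 ± 0.58 (SE, adjusted p = 0.0282, edgeR). The estimate is wide, with a 95% interval of the fold from 7.64 to 52.1, and the gene ranked 5 by log2 fold change. The call of Gstm3 was lost, with its direction kept, when p62+/+ mouse 1 (adjusted p = 0.200, edgeR) or p62S351E/+ mouse 1 (0.0884) or 2 (0.0782) was left out. Because Gstm3 shares reads with Gstm1, its increase also rests on how RSEM divided them.

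Gstm2 had few counts in either genotype, with 6, 11 and 2 in wild-type mice and 15, 32 and 31 in p62S351E/+ mice. These values did not overlap, and none of its counts was divided. The normalized counts were 5.03 ± 3.41 and 31.0 ± 8.41 (SD, n = 3 each). The log2 fold change was 2.58 ± 0.49 (SE) and did not pass the test (adjusted p = 0.0652, unadjusted p = 0.000685, edgeR), although the 95% interval of the fold ran from 2.73 to 13.1. The rank by log2 fold change was 21. The log2 fold change was 2.74 and past the threshold without p62S351E/+ mouse 3 (adjusted p = 0.00133, edgeR). It was 1.89 with library size only (adjusted p = 0.417, edgeR) and 2.48 without Rn45s, Lars2 and Mir6236 (adjusted p = 0.240, edgeR), and DESeq2 gave it no adjusted p.

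The other 4 members were too low for the test, and their values come from the same fit without a filter. Gstm4 had 6, 2 and 1 counts in wild-type mice and 9, 18 and 9 counts in p62S351E/+ mice. Its normalized counts of 2.41 ± 2.11 and 15.6 ± 7.97 (SD, n = 3 each) did not overlap, the closest values being 4.82 and 6.97. Its log2 fold change was 2.55 ± 0.62 (SE, adjusted p = 0.105, edgeR). It was 2.91 without p62S351E/+ mouse 3 (adjusted p = 0.00298, edgeR) and 1.49 with mouse 3 as the only p62S351E/+ mouse. With the brain-marker covariate it was 1.51 (adjusted p = 0.894, edgeR), with Xist 1.61 (adjusted p = 0.699, edgeR) and with library size only 1.80.

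Gstm5 had 5, 7 and 6 counts in wild-type mice and 0, 1 and 5 counts in p62S351E/+ mice. By normalized count it was the only member with every p62S351E/+ mouse lower, by a narrow margin of 3.87 in p62S351E/+ mouse 3 to 4.01 in wild-type mouse 1. The means were 4.88 ± 0.758 against 1.71 ± 1.98 normalized counts (SD, n = 3 each). The log2 fold change of -1.16 ± 0.78 (SE) missed the threshold (adjusted p = 0.662, edgeR, without a filter). Its counts followed the brain markers, with 0 and 1 counts in the libraries nearly free of them and 5 in p62S351E/+ mouse 3. The antisense 4933431E20Rik had a similar pattern, with 7, 16 and 12 counts in wild-type mice and 0, 4 and 17 in p62S351E/+ mice. With the brain-marker covariate the log2 fold change of Gstm5 was -0.26, with mouse 3 as the only p62S351E/+ mouse -0.31, and without mouse 3 -2.58. The part of brain transcripts or of antisense reads in the Gstm5 values was not tested.

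Gstm6 and Gstm7 overlapped between the genotypes. Gstm6 had 5, 4 and 5 counts in wild-type mice and 3.25, 10.67 and 4.2 counts in p62S351E/+ mice. By normalized count, p62S351E/+ mice 1 and 2 lay above all wild-type mice and mouse 3 within their range. Its log2 fold change was 0.90 (95% interval -0.39 to 2.19, adjusted p = 0.663, edgeR, without a filter). Gstm7 had 7, 5 and 5 counts against 1, 7 and 5 counts, and its log2 fold change was 0.09 (95% interval -1.20 to 1.38, adjusted p = 0.955, edgeR, without a filter). At this depth a change of Gstm7 of up to 2.59-fold upward lies within the interval, so a difference was not detectable, which is not the same as absent. The direction of both genes turned negative with the brain-marker sum as a covariate, at -0.19 for Gstm6 and -0.16 for Gstm7.

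Levels of different members were compared per kilobase of the principal transcript. In p62+/+ mice Gstm1 had 91.9 ± 7.62 normalized counts per kilobase (SD, n = 3) and stood alone. The next in order were Gstm3 with 5.36 ± 3.70, Gstm5 with 5.16 ± 0.802, Gstm2 with 4.73 ± 3.21, Gstm7 with 3.35 ± 0.656, Gstm6 with 3.31 ± 0.547 and Gstm4 with 1.41 ± 1.24 normalized counts per kilobase, and each overlapped its neighbour in that order. Beyond neighbours, all 3 values of Gstm5 lay above all 3 of Gstm7, of Gstm6 and of Gstm4.

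In p62S351E/+ mice the same levels formed clear steps at the top. Gstm1 had 1112 ± 264 normalized counts per kilobase, Gstm3 had 108 ± 40.4 and Gstm2 had 29.1 ± 7.91 (SD, n = 3 each), and none of the 3 overlapped the next in the order. Gstm4 with 9.14 ± 4.67, Gstm6 with 6.62 ± 4.55, Gstm7 with 3.53 ± 2.59 and Gstm5 with 1.81 ± 2.09 normalized counts per kilobase overlapped their neighbours.

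Within the family, Gstm1 made up most of the counts in both genotypes. Its share of the summed counts was 81.3 ± 3.24% in wild-type livers against 87.9 ± 1.57% in p62S351E/+ livers (SD, n = 3 each, two-sided exact permutation p = 0.1, adjusted over the 7 shares 0.175). The share of Gstm3 was 4.60 ± 2.72% and 8.42 ± 1.54% (exact permutation p = 0.2). The share of Gstm5 was 3.37 ± 0.669% against 0.130 ± 0.173%, that of Gstm6 2.67 ± 0.738% against 0.436 ± 0.210% and that of Gstm7 3.19 ± 0.731% against 0.293 ± 0.168%. For each of these 3 members the genotypes did not overlap (exact permutation p = 0.1, the smallest possible with 3 against 3), so the design cannot bring any share below the threshold.

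The ratio of each member to Gstm1 within a library needs no scaling between libraries. With a pseudocount of 0.5, the log2 ratio of Gstm3 to Gstm1 was -4.20 in p62+/+ and -3.39 in p62S351E/+ mice on average, a difference of 0.81 with overlapping genotypes (exact permutation p = 0.2). For Gstm2 and Gstm4 the differences were -0.84 and -0.94 (exact permutation p = 0.3 each), and the genotypes overlapped. The ratios of Gstm5, Gstm6 and Gstm7 were lower in all p62S351E/+ mice than in all p62+/+ mice, with mean differences of -4.98, -2.79 and -3.60 (exact permutation p = 0.1, adjusted over the 6 ratios 0.2). These sizes rest on few counts, such as 0, 1 and 5 for Gstm5 in p62S351E/+ mice. With a pseudocount of 1 the difference of Gstm5 was -4.57. Gstm1, to which each ratio is taken, was itself higher in all p62S351E/+ mice. Without Gstm1, the summed counts of the other 6 members still rose, with 27.8 ± 7.85 against 202 ± 71.9 normalized counts (SD, n = 3 each), which on the log2 scale is 2.86 ± 0.35 (SE, adjusted p = 0.00902, edgeR). Gstm3 alone supplied 141 of these 202 normalized counts, and its reads are divided with Gstm1. Of the other members in the sum, Gstm5 and Gstm7 had log2 fold changes of -1.16 and 0.09. This sum missed the threshold when any single p62+/+ mouse was left out (adjusted p = 0.0542 to 0.0795, edgeR).

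**Figure D3:**
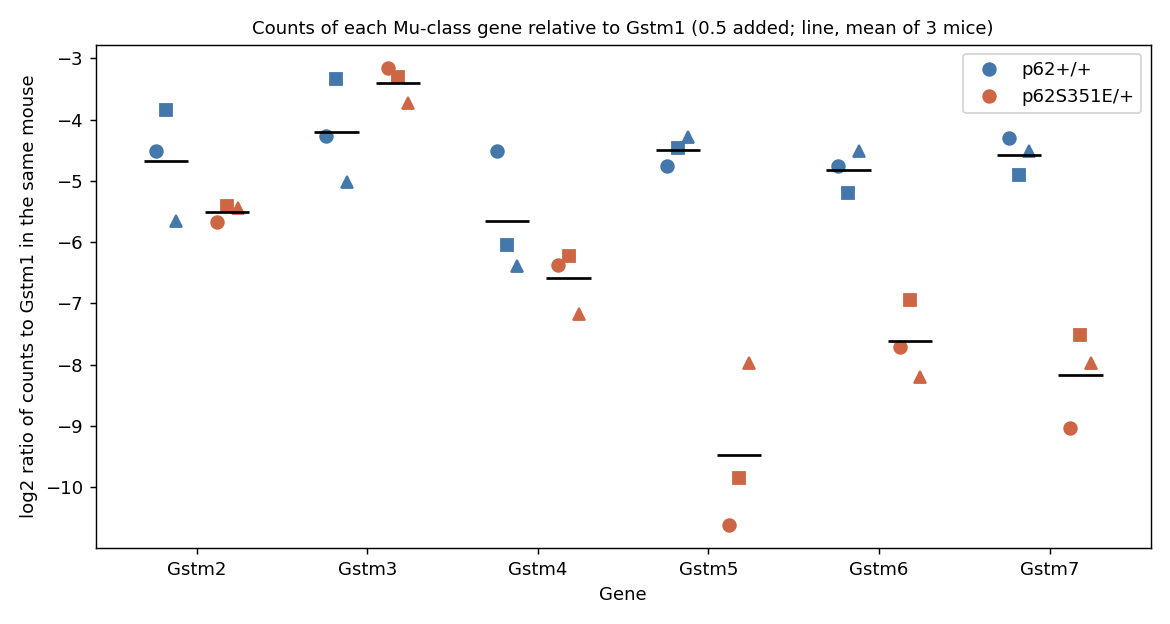
Log2 ratio of the counts of Gstm2 to Gstm7 to those of Gstm1 in each library (pseudocount 0.5), with a circle, square and triangle for mice 1, 2 and 3, blue for p62+/+ and orange for p62S351E/+, and a line for each mean. The p62S351E/+ points of Gstm5, Gstm6 and Gstm7 lie below all p62+/+ points, with mean differences of -4.98, -2.79 and -3.60.

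Along the cluster, the members with larger estimated fold changes were neighbours. Gstm3, Gstm2, Gstm1 and Gstm4, which follow each other from 107963696 to 108045179, had log2 fold changes of 4.32, 2.58, 3.59 and 2.55. Gstm5, Gstm7 and Gstm6, on the other side, had values of -1.16, 0.09 and 0.90. Outside the family, 11 rows were examined, 5 on each side of the cluster and 4933431E20Rik, which reaches 360 bases into it. Of these rows, 5 passed the filter and 0 were called by edgeR or DESeq2. At an unadjusted p below 0.05, edgeR gave 1 of these 5, Ahcyl1, with a log2 fold change of -0.88 ± 0.34 (SE, adjusted p = 0.296). Ampd2, the nearest tested gene beyond Gstm4, had -0.33 ± 0.36 (SE, adjusted p = 0.659, edgeR).

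**Figure D4:**
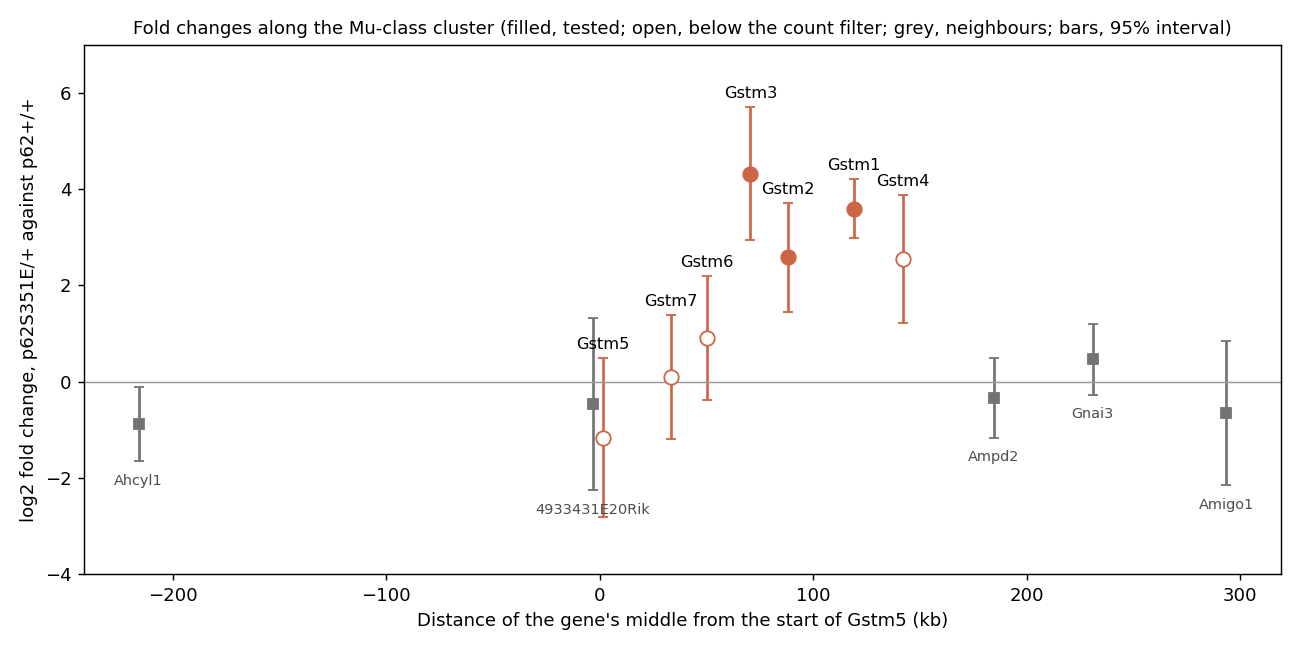
Log2 fold change, p62S351E/+ against p62+/+, of the Mu-class genes and tested neighbours by the distance of each gene's middle from the start of Gstm5 (kb), with filled points for tested members, open points for members below the filter, grey squares for neighbours and bars for 95% intervals. Gstm3 is highest at 4.32, and the intervals of Gstm1, Gstm2, Gstm3 and Gstm4 lie above 0.

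The promoters of the members were searched for letters of the antioxidant response element, since NRF2 is known to bind it. The pattern was TGANNNNGC on either strand, and the stricter TGACNNNGC, which it includes, was counted apart. Windows ran from 250 bases before to 50 bases after each annotated start (RefSeq, GRCm38.p6). Of 32851 such windows in the genome, 41.3% held TGANNNNGC and 12.4% held TGACNNNGC. The 7 members had 12 windows, of which 5 held the first pattern and 2 the second. The matches are printed 5′ to 3′ on the strand of the gene, with the matching letters in capitals, as the reverse complement where the match is on the other strand.
Gstm3, 223 bases before the start, chr3:107969369-107969417: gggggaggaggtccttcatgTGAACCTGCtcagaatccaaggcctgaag
Gstm3, 199 bases before the start, chr3:107969345-107969393: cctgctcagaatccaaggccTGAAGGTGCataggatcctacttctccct
Gstm7, 129 bases before the start, chr3:107931715-107931763: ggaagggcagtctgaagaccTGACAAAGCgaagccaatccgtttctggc
Gstm5, 42 bases before the start, chr3:107895792-107895840: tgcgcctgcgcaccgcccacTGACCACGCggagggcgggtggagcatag
Gstm5, 196 bases before the start, chr3:107895638-107895686: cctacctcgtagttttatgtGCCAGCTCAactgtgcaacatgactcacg
Gstm4, 203 bases before the start, chr3:108045034-108045082: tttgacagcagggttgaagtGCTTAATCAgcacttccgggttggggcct

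The windows of Gstm1, Gstm2 and Gstm6 held no match. The strict pattern occurred in Gstm5, 42 bases before the start, and in Gstm7, 129 bases before a second annotated start. Of the 2 members called higher, Gstm3 had matches and Gstm1 had none. A match is only a description of letters, and a missing match says nothing of elements outside these windows.

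Other cytosolic glutathione S-transferases, which act on overlapping substrates, had 1 of 8 tested genes called higher and 0 lower, with 5 of the 8 at an unadjusted p below 0.05 in edgeR and 2 called higher by DESeq2. The median log2 fold change of the 8 was 1.19, against -0.03 over all genes tested. Gsta2, an Alpha-class gene, had 0, 2 and 1 counts in wild-type mice and 15.23, 21.8 and 43.84 counts in p62S351E/+ mice, with a log2 fold change of 5.03 ± 0.66 (SE, adjusted p = 0.00602, edgeR). All 3 wild-type values lay at or below 3 counts, so that fold depends on the fit. Gsta2 passed the filter through its counts in p62S351E/+ mice, so the tested genes are not a fair sample of the list. Over all 5945 genes tested by edgeR, 0.841% were called higher and 14.6% had an unadjusted p below 0.05. These shares also stand beside the lists that follow. Of the membrane and mitochondrial transferases, 0 of 3 tested were called by edgeR or DESeq2, and 2 had an unadjusted p below 0.05 in edgeR. Mgst1, the microsomal transferase of liver, had a log2 fold change of 0.84 ± 0.23 (SE, adjusted p = 0.161, edgeR).

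Of the genes that supply and recycle glutathione, the co-substrate of the Mu class, 2 of 14 tested were called higher and 0 lower, with a median log2 fold change of 0.91. At an unadjusted p below 0.05 edgeR gave 7 of the 14, and DESeq2 called 1 higher. Gclc, the catalytic subunit of the rate-limiting ligase of glutathione synthesis, had 49, 41 and 37 counts in wild-type mice and 164, 109 and 212.05 in p62S351E/+ mice. In normalized counts it went from 34.4 ± 4.29 up to 205 ± 94.2 (SD, n = 3 each), which is on the log2 scale a change of 2.57 ± 0.34 (SE, adjusted p = 0.0127, edgeR). Gsr, which reduces oxidized glutathione, went from 6.47 ± 1.44 up to 30.8 ± 3.99 normalized counts (SD, n = 3 each), which is on the log2 scale a change of 2.23 ± 0.30 (SE, adjusted p = 0.0146, edgeR). Both calls rest on all 3 wild-type mice, since without any of these 0 genes of the list were called. Without p62S351E/+ mouse 3, 7 were called higher. Gsr had 10, 8 and 6 counts in wild-type mice and passed the filter through its counts in p62S351E/+ mice. The tested genes are thus not a fair sample of the list.

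Of the genes for export and further processing of conjugates, 2 of 8 tested were called higher and 0 lower, by edgeR and by DESeq2, with a median log2 fold change of 0.33. Both are exporters of organic anions. Abcc3 had 23, 30 and 27 counts in wild-type mice and 130, 171 and 226 in p62S351E/+ mice, with a log2 fold change of 3.29 ± 0.24 (SE, adjusted p = 0.000511, edgeR). Abcc4 had 4, 8 and 2 counts against 44, 44 and 74, with a log2 fold change of 4.08 ± 0.42 (SE, adjusted p = 0.0051, edgeR). Both were high in every p62S351E/+ mouse. Abcc4 passed the filter through these high counts, so the tested genes of this list are not a fair sample of it either. Abcc2, the exporter of the bile canaliculus, had a log2 fold change of 1.10 ± 0.26 (SE, adjusted p = 0.118, edgeR).

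Transcripts of the NRF2 pathway's own components did not pass the test. Of 9 tested, 0 were called by edgeR or DESeq2, 0 had an unadjusted p below 0.05 in edgeR, and the median log2 fold change was 0.10. Without overlap between the genotypes, 1 was higher and 1 lower, where 12.0% of all tested genes were higher and 14.7% lower. The higher was Sqstm1, with at most 86.4 normalized counts in wild-type and at least 89.9 in p62S351E/+ mice. The lower was Rbx1, with at least 8.64 and at most 7.75. The log2 fold change of Sqstm1 was 0.30 ± 0.20 (SE, adjusted p = 0.499), that of Keap1 0.76 ± 0.56 (SE, adjusted p = 0.538) and that of Nfe2l2, which encodes NRF2, -0.63 ± 0.39 (SE, adjusted p = 0.474, all by edgeR). The plot of glutathione genes sets the members beside the lists described before.

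**Figure D5:**
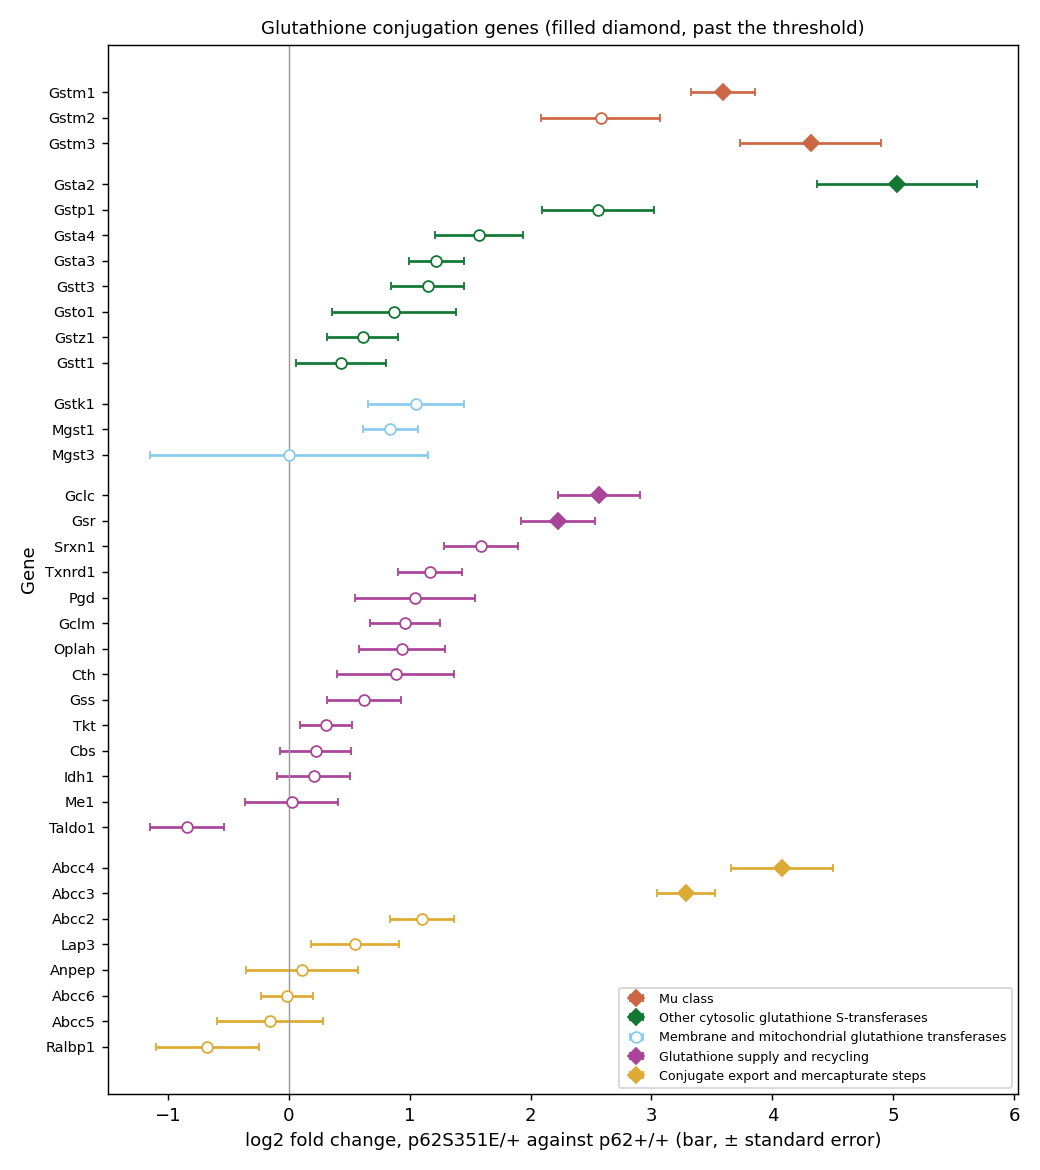
Log2 fold change ± SE, p62S351E/+ against p62+/+, of each tested gene of the Mu class and of 4 lists of glutathione genes, with a filled diamond for genes past the threshold and an open circle for the others. Gstm3 at 4.32 and Gstm1 at 3.59 lie in the same range as Gsta2 at 5.03, Abcc4 at 4.08 and Abcc3 at 3.29.

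The 5 genes whose levels ran most closely with the summed Mu-class counts over the 6 libraries were Cbr3, Sord, Cbr1, Hrg and Abcc3, with Pearson correlations of log2 scaled counts between 0.992 and 0.993. The 6 libraries share their genotype split, so any gene that rose strongly and evenly correlates with the sum, and the values are a description. Cbr3 and Cbr1, both carbonyl reductases, had log2 fold changes of 6.19 (adjusted p = 0.000457, edgeR) and 3.64 (adjusted p = 0.000457, edgeR). Cbr3 had at most 0.803 normalized counts in any wild-type mouse, so its fold depends on the fit. Those of Sord, sorbitol dehydrogenase, and Hrg, histidine-rich glycoprotein, were smaller, at 1.43 (adjusted p = 0.0243, edgeR) and 1.89 (adjusted p = 0.00891, edgeR).

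Of 8 periportal markers, 0 were called by edgeR and 1 by DESeq2, and 5 had an unadjusted p below 0.05 in edgeR. Without overlap 5 were higher and 0 lower, and the median log2 fold change was 0.92. Of 5 tested pericentral markers, 0 were called by edgeR or DESeq2 and 2 had an unadjusted p below 0.05 in edgeR. Without overlap 1 was higher and 1 lower, and the median was 0.12. Over all genes tested, 14.6% had an unadjusted p below 0.05 in edgeR. In the same set, 12.0% were higher and 14.7% lower without overlap. Of the tested markers of bile duct (1), Kupffer cells (3), stroma (4), endothelium (3) and red cells (4), 0 were called by edgeR. In stroma, 2 markers had an unadjusted p below 0.05 in edgeR, and DESeq2 called 1 lower. Without overlap, Kupffer cell markers had 1 higher and 1 lower, stromal markers 0 and 1, and those of bile duct, endothelium and red cells 0. The part of cell composition in the Mu-class values was not tested.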

How the data were processed

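Liver RNA of 3 p62+/+ and 3 p62S351E/+ mice was depleted of ribosomal RNA and sequenced as 75-base single-end reads. Against mm10, the authors aligned reads by STAR, obtained expected counts for each gene by RSEM and deposited them without normalization for 24411 symbols (DESeq2 and Trim Galore are also listed in the submitters' processing notes). Versions, annotation and strand setting were not given in the sources used here. Before testing, the values were rounded to integers.

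The genotypes were compared by edgeR 4.0.16 under R 4.3.3 (filterByExpr with a minimum count of 10, TMM, robust quasi-likelihood fit, Benjamini-Hochberg adjustment over 5945 genes). DESeq2 1.42.0 and limma 3.58.1 (voom) served as alternatives. Within-library ratios and shares were compared by exact permutation of the mice. The labels number the mice but give no litter or batch, and p-values measure the spread between these samples. Sequences were read from GENCODE M21 and RefSeq tables of GRCm38 with Biopython 1.88 in Python 3.11.15. Protein identity had been planned, but no protein table was used here, and coding-sequence identity was computed instead.

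The members and gene lists were chosen with earlier results of these data known. Named genes were every member, the called genes of each list and otherwise up to 4 with the largest counts, the 5 genes most like the summed members, and the tested neighbours. Depth outside the 3 abundant rows limits the precision, and counting error covers neither mice nor libraries. On simulated counts with 200 changed genes (raised or lowered by 2 on the log2 scale), edgeR recovered 70.3% of the 192 that were tested among 6436 genes, and 5.59% of its 143 calls were false. The simulation held no split such as that between p62S351E/+ mouse 3 and mice 1 and 2. Its shares may therefore not hold for these data. Alternatives were other tools, scalings, filters and thresholds, the replicate block, brain-marker and Xist covariates, and leaving out each mouse. The sum without Gstm1, the ratio to hepatocyte markers and the comparison with p62S351E/+ mouse 3 alone were chosen after seeing the data.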

Additional observations from a re-analysis of the deposited data

How the results depend on the processing

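The rise of Gstm1 and of the summed members kept its direction under every alternative run (log2 fold changes 2.86 to 3.77 and 2.75 to 3.67). Both stayed past the threshold in every fit with more than 1 p62S351E/+ mouse. The fit with p62S351E/+ mouse 3 alone is given without a test. Leaving out each mouse in turn gave 3.44 to 3.77 for Gstm1, 2.19 to 3.19 for Gstm2, 3.95 to 5.06 for Gstm3, 2.12 to 3.48 for Gstm4 and 0.07 to 1.33 for Gstm6. Gstm7 ranged from -0.54 to 0.37. The call of Gstm3 was also lost without Rn45s, Lars2 and Mir6236 (4.12, adjusted p = 0.159, edgeR). Of the 19 alternatives for Gstm2, 15 left it short of the threshold. It passed with the legacy quasi-likelihood method (2.56), without a filter (2.54) and without p62S351E/+ mouse 3 (2.74). With that mouse alone it was 2.22, a value of 1 mouse. Of the fits with more than 1 p62S351E/+ mouse, Gstm4 passed the threshold only with limma-voom (2.45), the legacy method (2.51) and without p62S351E/+ mouse 3 (2.91). Gstm6 turned negative with the brain-marker covariate (-0.19), the Xist covariate (-0.0059) and mouse 3 alone (-0.27). Gstm7 turned negative with limma-voom (-0.028), library size only (-0.53), the brain-marker covariate (-0.16), the Xist covariate (-0.26), mouse 3 alone (-0.23), without p62+/+ mouse 2 (-0.02) and without p62S351E/+ mouse 2 (-0.54). Gstm5 was lower and not called under all settings (-2.58 to -0.26). The number of members called higher was 1 without the 3 abundant rows, with at least 10 counts in every library and at an adjusted p below 0.01, and 1 to 3 on leaving out a mouse. The sum without Gstm1 missed the threshold with library size only (2.09) and without the 3 rows (2.82). Called higher among the other cytosolic transferases were 2 with DESeq2 and 1 to 5 on leaving out a mouse. The membrane list gave 0 to 1 on leaving out a mouse. Genes of glutathione supply called higher were 1 with DESeq2, 0 with library size only, 1 with the replicate block and 0 to 7 on leaving out a mouse, and the export list had 0 to 1 lower. The share of Gstm4 changed sign without p62+/+ mouse 1 (leaving out each mouse gave -1.20 to 0.0921 percentage points). The causes were not tested. The same-numbered mice are different animals, and the labels state no pairing. Correlations of their deviations from the group means were -0.0906 to 0.0757. With 3 mice in each group these values cannot decide whether mice shared a litter or batch. With the replicate block, 18 genes were higher and 1 lower against 50 and 5, and Gstm1 and Gstm3 stayed called (3.57 and 4.47). Over all genes DESeq2 called 57 higher and 11 lower, limma-voom 122 and 13, no filter 79 and 10, and at least 10 counts in every library 70 and 29. Library size only gave 12 and 2, where the median log2 fold change was -0.68 against -0.03, so the 2.86 of Gstm1 there stands above that shift. It was -0.18 with DESeq2 and -0.16 without a filter. Fewer calls came without the 3 rows (19 and 2), with the brain-marker (29 and 2) and Xist covariates (28 and 2). Leaving out p62S351E/+ mouse 3 gave 329 and 976, and any other mouse 16 to 30 higher and 1 to 4 lower. Depth limits Gstm4 to Gstm7, which had 18 counts or fewer in every library.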
